A study of Mus musculus with 16 samples.

Results

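The erythroid microRNAs described here are mmu-miR-451a, both arms of miR-144 (mmu-miR-144-5p and mmu-miR-144-3p), and the 5p arms of miR-486a and miR-486b (mmu-miR-486a-5p and mmu-miR-486b-5p). They are 5 of the 1915 mature microRNA entries of the deposited count table and were picked by name as microRNAs known from red cells. The libraries were made from extracellular vesicles (EVs) of bone marrow plasma, captured with magnetic beads carrying an antibody to the HA tag. The vesicles came from 6-month-old mice on a C57BL/6N background that all carried the CAGS-Snorkel reporter and a Cre driver. In the Ocn group the driver was Ocn-Cre (6 libraries, from 3 male and 3 female mice), which uses the promoter of osteocalcin, a protein of bone-forming cells late in their maturation. In the Prx1 group it was Prx1-Cre (10 libraries, from 5 male and 5 female mice), which is active in early limb mesenchyme and its descendants. Sex was not given per library. Neither Cre-negative mice nor plasma without the HA capture were analysed here, so the level that the beads bind without the tag is not known. In EV bulk RNA, fewer vesicles from a cell type and less of a microRNA per vesicle cannot be told apart.

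Mir144 and Mir451a are transcribed together and are switched on by GATA1 as red cell precursors mature. miR-451a is unusual among microRNAs in that its short hairpin bypasses Dicer and is cut by AGO2, so that the mature strand runs from the stem into the loop. It restrains Ywhaz, which encodes 14-3-3 zeta, and protects red cells from oxidative damage, while miR-144 is known in human cells to restrain NRF2. miR-486 lies within the ankyrin gene Ank1, is abundant in red cells and in striated muscle, and is known to restrain Foxo1.

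The mature strands that the results below turn on are shown for the 3 members that matched the RefSeq table (GRCm38.p6), 5′ to 3′, with the seed (bases 2 to 8) in capitals.
miR-451a: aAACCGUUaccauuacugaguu
miR-144-5p: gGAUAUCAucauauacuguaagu
miR-144-3p: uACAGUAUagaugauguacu
The 3 seeds differ, and 0 other entries of the table with a RefSeq sequence share any of them. All 3 strands come from the plus strand of chromosome 11, with miR-144-5p at chr11:78073010-78073032, miR-144-3p at chr11:78073047-78073066 and miR-451a at chr11:78073186-78073207. The hairpins are shown next, with the mature strands in capitals, because the levels of the arms are compared further on.
Mir144 hairpin: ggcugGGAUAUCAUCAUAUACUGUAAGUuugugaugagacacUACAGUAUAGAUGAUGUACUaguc
Mir451a hairpin: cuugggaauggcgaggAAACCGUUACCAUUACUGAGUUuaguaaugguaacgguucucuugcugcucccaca
The Mir144 hairpin has an arm on each side of its loop. In the minimum free energy fold, 20 of the 23 bases of miR-144-5p and 19 of the 20 bases of miR-144-3p were paired. In the Mir451a hairpin, 17 of the 22 bases of the mature strand were paired on the 5′ side of the stem and the other 5 were unpaired.

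In the mm10 (GRCm38) annotation, Mir144 occupies chr11:78073005-78073070 and Mir451a chr11:78073170-78073241, with 99 bases between them. Neither lies in a protein-coding gene. Mir451b, an antisense hairpin gene, covers the same bases as Mir451a on the minus strand, and miR-451b had 1 count in all 16 libraries together. Mir486 occupies chr8:23142555-23142682 on the plus strand, in an intron of Ank1, and is overlapped on the minus strand by the microRNA gene Mir3107 and by an intron of the antisense gene Gm15816.

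The total count of a library lay between 582660 and 1536421 in Ocn and between 225273 and 813770 in Prx1, so depth moved with the driver. Levels are given as CPM, the count scaled to the library total. The members had between 74 and 16620 counts in a library, and all 5 passed the filter on low counts that left 234 entries to test. All 8 entries of a mesenchymal and stromal list passed the same filter. Together they made up 3.72% to 5.04% of the counts in Ocn and 3.28% to 4.59% in Prx1. Whether these counts came from the labelled cells was not tested.

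The erythroid microRNAs were detected in every library and kept 1 order of level in 16 of 16 libraries, with miR-486 highest, then miR-144-5p, then miR-451a, then miR-144-3p. With miR-486 counted once, they made up 1.47% to 2.77% of the counts in Ocn (median 2.07%) and 1.84% to 2.75% in Prx1 (median 2.29%). By mean CPM over all libraries, miR-486a-5p ranked 12 in the table, miR-144-5p ranked 36, miR-451a ranked 47 and miR-144-3p ranked 87. Of these signals, miR-486 was lower in Ocn and passed the test. miR-144-3p was higher in Ocn but just missed the threshold of an adjusted p of 0.05, and neither miR-451a nor miR-144-5p passed it.

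**Figure D1:**
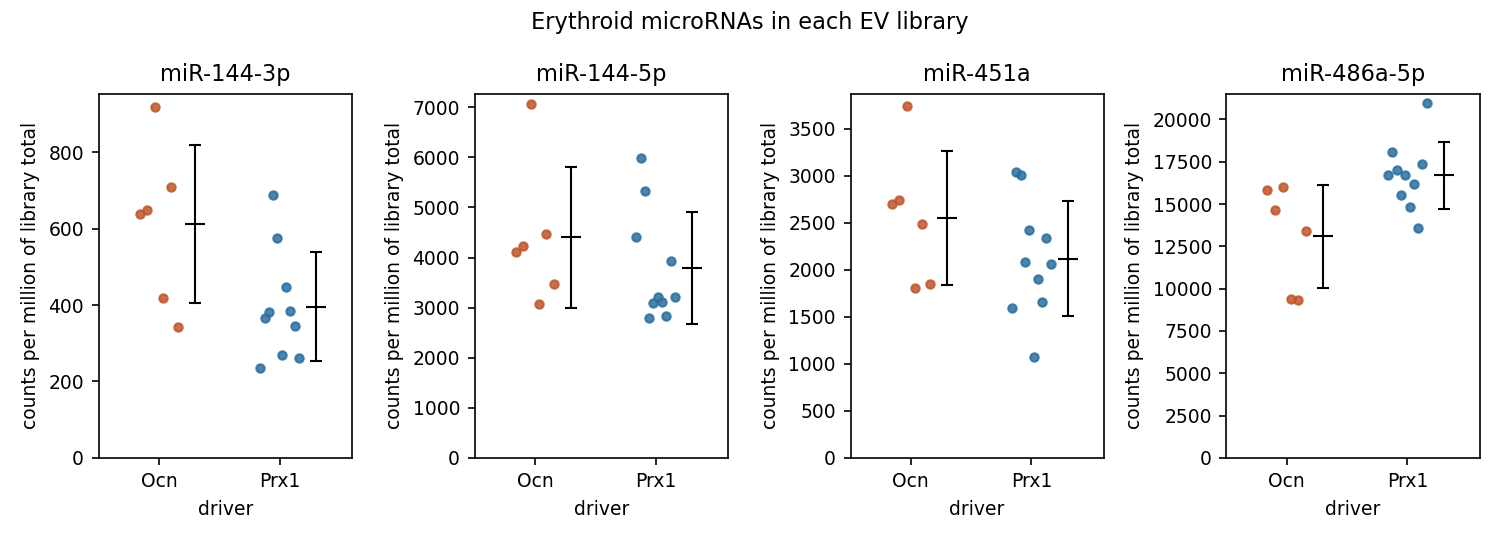
Level of each erythroid microRNA in every EV library, as CPM of the library total, with Ocn left of Prx1 in each panel. Each point is a library and the bar is the mean ± SD (n = 6 for Ocn and 10 for Prx1). For miR-486a-5p, Ocn 4, Ocn 5 and Ocn 6 lie below every Prx1 library, while for all 4 microRNAs the ranges of the groups overlap.

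miR-486a-5p and miR-486b-5p were near-identical in their counts and are treated as one signal. miR-486a-5p had the higher count in all 16 libraries, by a log2 ratio of at most 0.016. The counting cannot separate them, and miR-486a-5p stands for both in what follows.

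miR-486a-5p ran from 9356 CPM (Ocn 5) through a median of 14008 to 16032 CPM (Ocn 3) in Ocn, and from 13562 CPM (Prx1 8) through a median of 16728 to 20954 CPM (Prx1 10) in Prx1. Ocn 4 and Ocn 5 were the low libraries, Ocn 6 also lay below every Prx1 library, and the other Ocn libraries lay within the Prx1 range. Over the 6 Ocn libraries the mean was 13100 ± 3048 CPM (SD), and over the 10 Prx1 libraries it was 16695 ± 1989 CPM (SD). The edgeR quasi-likelihood test gave a log2 fold change of -0.38 (SE 0.13, 95% interval -0.65 to -0.12), a ratio of 0.766, with an adjusted p of 0.0451. miR-486b-5p gave -0.38 (SE 0.13, adjusted p = 0.0457 in edgeR). The difference between the means was larger than the SD within either group, and 6 of 6 Ocn libraries lay below the Prx1 median.

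The miR-486 call was close to the threshold. Leaving out Ocn 2, Ocn 4, Ocn 5, Ocn 6, Prx1 8, Prx1 9 or Prx1 10 ended it, with the smallest change of -0.24 without Ocn 5 (edgeR adjusted p = 0.181). With the depth of each library (log10 of its total) as a term in the model, the change was -0.18 (edgeR adjusted p = 0.638). Over 32 other settings the adjusted p ran from 0.0175 to 0.638 and was past the threshold in 16.

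The 3p arm of the miR-486a hairpin was the minor arm. miR-486a-3p ran from 74.9 CPM (Ocn 6) through a median of 109 to 196 CPM (Ocn 2) in Ocn, and from 102 CPM (Prx1 8) through a median of 157 to 194 CPM (Prx1 10) in Prx1. The groups overlapped, and the log2 fold change of -0.39 (SE 0.21) had an edgeR adjusted p of 0.229. The 5p arm exceeded the 3p arm 123 ± 49-fold over the 6 Ocn libraries (SD) and 111 ± 15-fold over the 10 Prx1 libraries (SD).

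miR-144-3p ran from 344 CPM (Ocn 6) through a median of 643 to 920 CPM (Ocn 3) in Ocn, and from 235 CPM (Prx1 1) through a median of 374 to 688 CPM (Prx1 4) in Prx1. Ocn 3 and Ocn 5 lay above every Prx1 library, Ocn 6 lay below the Prx1 median, and the groups overlapped. Over the 6 Ocn libraries the mean was 613 ± 207 CPM (SD), and over the 10 Prx1 libraries it was 396 ± 143 CPM (SD). The log2 fold change was 0.58 (SE 0.20, 95% interval 0.16 to 1.01), with an adjusted p of 0.0569 in edgeR. This strand had the fewest counts of the members, and 74 counts in Prx1 1 correspond to an exact 95% interval of 185 to 295 CPM. Its adjusted p ran from 0.00315 to 0.191 over 32 other settings and was past the threshold in 7. These include the fits without Ocn 6 (edgeR adjusted p = 0.0183), without Prx1 4 (0.0177) and without Prx1 5 (0.0497).

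miR-144-5p ran from 3064 CPM (Ocn 4) through a median of 4174 to 7057 CPM (Ocn 3) in Ocn, and from 2783 CPM (Prx1 4) through a median of 3214 to 5988 CPM (Prx1 2) in Prx1. Ocn 3 stood above all other libraries, and 5 of 6 Ocn libraries lay above the Prx1 median, within an overlapping range. Over the 6 Ocn libraries the mean was 4401 ± 1402 CPM (SD), and over the 10 Prx1 libraries it was 3789 ± 1115 CPM (SD). The log2 fold change was 0.17 (SE 0.17, 95% interval -0.19 to 0.52) with an edgeR adjusted p of 0.585.

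miR-451a ran from 1804 CPM (Ocn 4) through a median of 2588 to 3740 CPM (Ocn 3) in Ocn, and from 1073 CPM (Prx1 6) through a median of 2071 to 3043 CPM (Prx1 2) in Prx1. Ocn 3 was again the highest library, 4 of 6 Ocn libraries lay above the Prx1 median, and the groups overlapped. Over the 6 Ocn libraries the mean was 2552 ± 710 CPM (SD), and over the 10 Prx1 libraries it was 2119 ± 616 CPM (SD). The log2 fold change was 0.22 (SE 0.18, 95% interval -0.14 to 0.59) with an edgeR adjusted p of 0.440. The interval includes no change, as that of miR-144-5p does.

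Among all 234 tested entries, 13.7% passed the same threshold in either direction, 5.98% higher and 7.69% lower in Ocn, and the median log2 fold change was 0.01. Of the 5 erythroid entries, 0 were called higher and 2 were called lower, and these 2 are the one miR-486 signal. With so few signals, that count cannot be set apart from the share over all entries. Upper quartile scaling shifted the overall median by 0.12. With it, 26 entries were higher and 11 lower, against 14 and 18 with TMM scaling, and miR-486a-5p was at -0.39 relative to that median. Non-overlapping groups were found for 3.85% of the tested entries and for none of the erythroid ones.

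**Figure D2:**
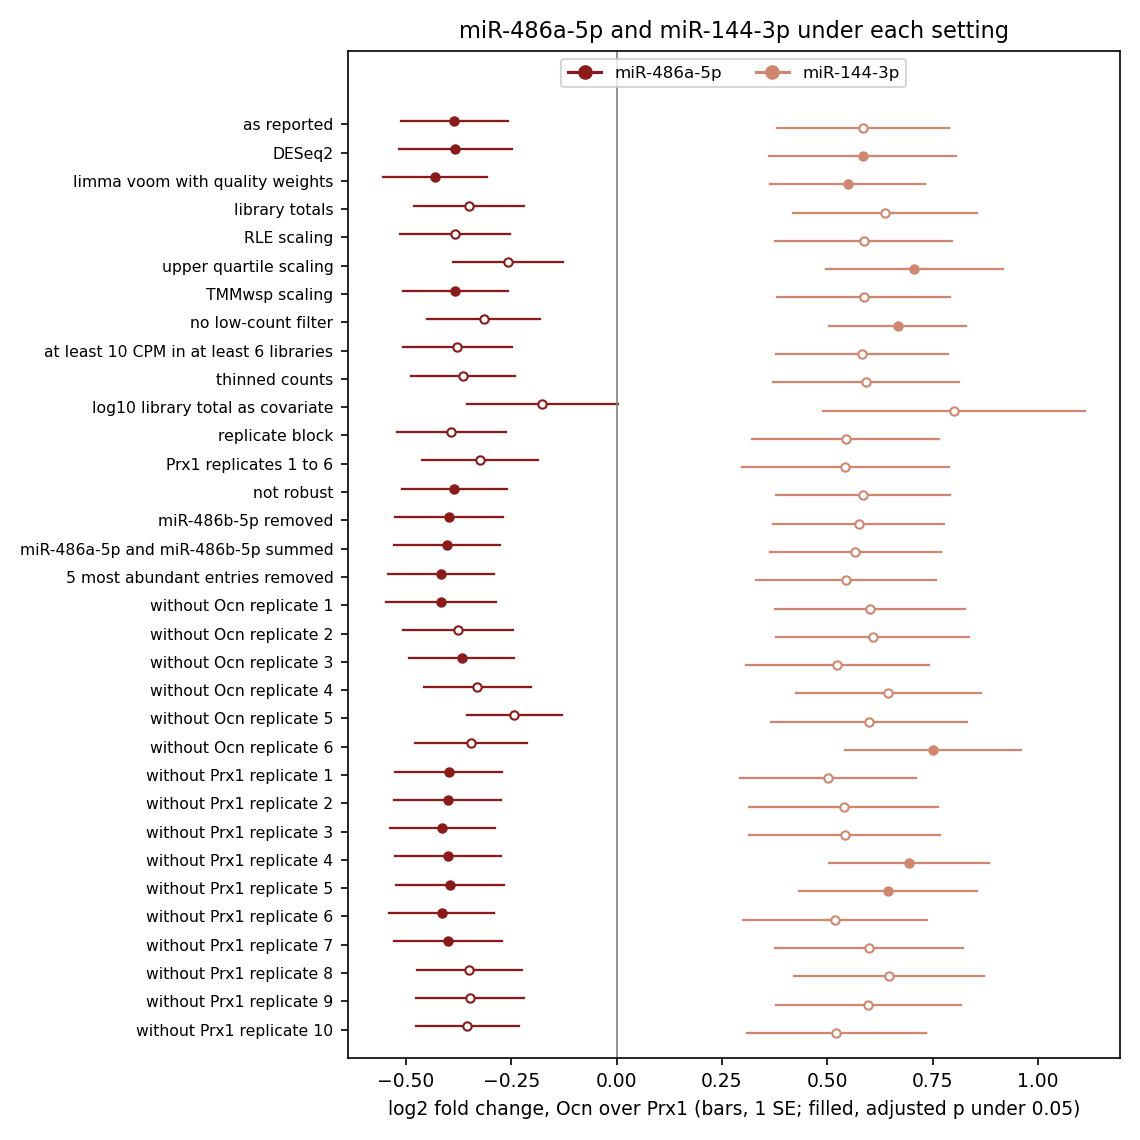
Log2 fold change of miR-486a-5p and miR-144-3p, Ocn over Prx1, under the reported setting and each alternative; bars are 1 SE and filled points have an adjusted p under 0.05. Every setting kept miR-486a-5p below 0 (-0.43 to -0.18) and miR-144-3p above 0 (0.50 to 0.80), while the filled and open points change with the setting.

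The relative amounts of the members within a library do not depend on scaling, and they are given as descriptions without a test except for the arms of miR-144. The ratio of miR-486a-5p to miR-451a ran from 3.77 (Ocn 5) through a median of 5.26 to 7.23 (Ocn 6) in Ocn, and from 5.66 (Prx1 3) through a median of 7.81 to 13.8 (Prx1 6) in Prx1. In Ocn, 6 of 6 libraries were below the Prx1 median and 4 of 6 were below every Prx1 library. The ratio of miR-486a-5p to miR-144-3p was 23.2 ± 8.8 over the 6 Ocn libraries (SD) and 47.3 ± 18.0 over the 10 Prx1 libraries (SD). The mean log2 difference was -0.66 for the ratio to miR-451a and -1.01 for the ratio to miR-144-3p.

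For the strands of the Mir144-Mir451a locus, miR-144-5p exceeded miR-451a 1.72 ± 0.16-fold in Ocn (SD, n = 6; range 1.52 to 1.89) and 1.87 ± 0.57-fold in Prx1 (SD, n = 10; range 1.27 to 3.00). The ratio thus spread little over the Ocn libraries and more over the Prx1 libraries, where the highest value was in Prx1 6, the library with the least miR-451a. miR-451a exceeded miR-144-3p 4.28 ± 0.61-fold over the 6 Ocn libraries (SD) and 5.74 ± 1.96-fold over the 10 Prx1 libraries (SD).

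Whether the arms of miR-144 differed alike between the drivers was tested on their ratio. The count of miR-144-5p over that of miR-144-3p ran from 6.31 (Ocn 5) through a median of 6.92 to 10.1 (Ocn 6) in Ocn, and from 4.05 (Prx1 4) through a median of 11.7 to 18.7 (Prx1 1) in Prx1. All Ocn libraries lay below the Prx1 median, but Prx1 4 and Prx1 5 lay below all Ocn libraries, so the Ocn values sit inside the Prx1 range. In limma over 44 hairpins with both arms tested, the log2 difference was -0.42 (SE 0.29, 95% interval -1.02 to 0.19) with an adjusted p of 0.316. The share of hairpins past the threshold in that fit was 6.82%. Hence no difference in arm use passed the test, while the interval admits a ratio in Ocn well below that in Prx1.

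**Figure D3:**
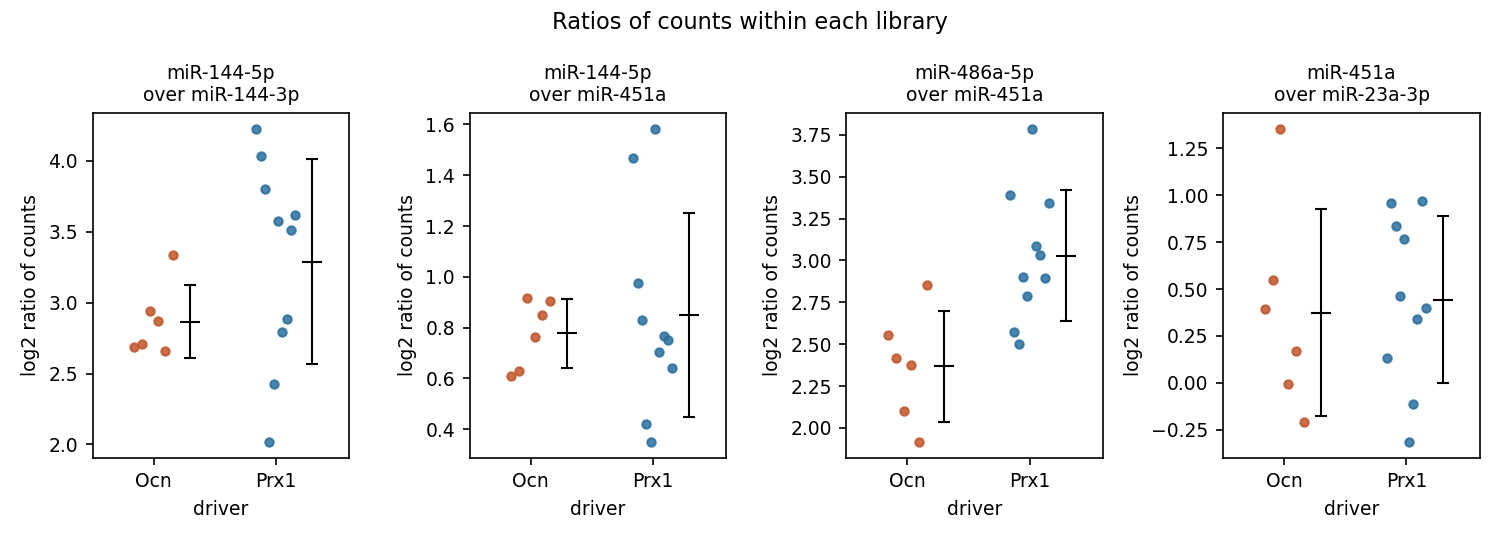
Ratios of counts between the erythroid microRNAs, and of miR-451a to miR-23a-3p, in every library, as log2 ratios, with Ocn left of Prx1. Each point is a library and the bar is the mean ± SD of the log2 ratio. For miR-486a-5p over miR-451a, 4 of 6 Ocn libraries lie below every Prx1 library, and for miR-144-5p over miR-144-3p the Ocn values (6.31 to 10.1 as plain ratios) lie inside the range of Prx1 (4.05 to 18.7).

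The ratio of miR-451a to miR-23a-3p is used in plasma work as a gauge of red cell lysis, since miR-23a-3p is little affected by it. It ran from 0.865 (Ocn 6) through a median of 1.22 to 2.56 (Ocn 3) in Ocn, and from 0.803 (Prx1 6) through a median of 1.35 to 1.96 (Prx1 9) in Prx1. Apart from Ocn 3, the Ocn libraries lay within the Prx1 range. The mean log2 difference was -0.07 (exact permutation test, 2-sided, p = 0.786), with a 95% interval of -0.60 to 0.47 from inverting the same test. Without Ocn 4 the log2 difference of the ratio was 0.0073 and without Ocn 6 it was 0.048, so its direction turned. miR-23a-3p itself had a log2 fold change of 0.32 (SE 0.13, edgeR adjusted p = 0.0917).

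Across libraries, miR-451a, miR-144-5p and miR-144-3p were compared with one another and with miR-486a-5p, after removing each group's mean from the log2 CPM (TMM-scaled, pseudocount 1). Of the 8 relations computed, 0 passed after Benjamini-Hochberg adjustment and 1 had an unadjusted p under 0.05 in the permutation test of Pearson's r. That relation was miR-451a with miR-144-5p (r = 0.61, permutation p = 0.0161, adjusted p = 0.129), with a Spearman's rho of 0.51 (adjusted p = 0.264). It was 0.61 without the 2 libraries farthest from the median of miR-451a. With library totals in place of TMM scaling it was 0.68 (adjusted p = 0.0378).

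miR-451a with miR-144-3p gave r = 0.50 (permutation test, adjusted p = 0.244) and rho = 0.49, and 0.52 without the 2 farthest libraries. The arms of miR-144 gave r = -0.04 (permutation test, adjusted p = 0.897) and rho = -0.18. This value joins opposite ones in the groups, with r = 0.81 within Ocn (n = 6, exact permutation p = 0.0486, adjusted p = 0.130) and r = -0.41 within Prx1 (n = 10, permutation p = 0.240, adjusted p = 0.393). The difference between these correlations was not tested. Within Ocn, miR-451a gave r = 0.91 with each arm (n = 6, exact permutation p = 0.0125 for miR-144-3p and 0.00833 for miR-144-5p, both 0.05 when adjusted over the 8 relations), and Ocn 3 was highest for all 3 strands. Within Prx1 the same relations were r = 0.35 for miR-144-3p and 0.51 for miR-144-5p (n = 10).

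miR-486a-5p gave r = 0.38 with miR-451a (permutation test, adjusted p = 0.286), 0.32 with miR-144-5p (adjusted p = 0.368) and -0.11 with miR-144-3p (adjusted p = 0.786). With the muscle microRNAs it gave r = 0.10 for miR-133a-3p (permutation test, adjusted p = 0.786) and -0.27 for miR-1a-3p (adjusted p = 0.368). The spread of miR-486a-5p, as the SD of log2 CPM, was 0.35 in Ocn and 0.16 in Prx1. In Ocn this was within the range of the other members (0.32 for miR-451a, 0.33 for miR-144-5p and 0.43 for miR-144-3p), and in Prx1 it was below them (0.43 for miR-451a, 0.38 for miR-144-5p and 0.48 for miR-144-3p). Ocn 4 and Ocn 5 were the low Ocn libraries for miR-486a-5p, and the difference in spread between the groups was not tested.

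**Figure D4:**
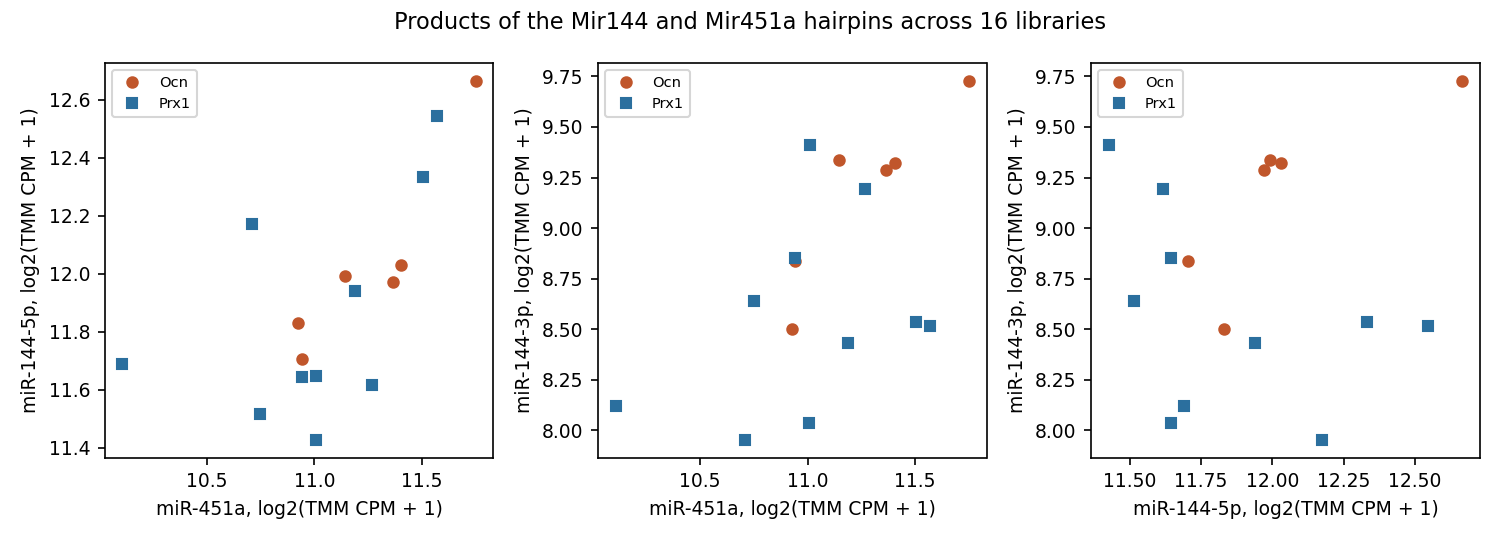
Levels of miR-451a, miR-144-5p and miR-144-3p against one another across the 16 libraries, as log2 of the TMM-scaled CPM plus 1; each point is a library, a circle for Ocn and a square for Prx1. miR-144-5p tends to be high where miR-451a is high (r = 0.61 after removing the group means), while no common trend joins the arms of miR-144 (r = -0.04).

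Depth was compared with each member because library totals moved with the driver. The group-centred r with log10 of the library total was 0.01 for miR-451a, -0.13 for miR-144-3p, -0.10 for miR-144-5p and -0.44 for miR-486a-5p (permutation p = 0.113 for the last, adjusted p = 0.451 over 4 relations). Spearman's rho for miR-486a-5p was -0.37 (permutation p = 0.197), and without the 2 libraries farthest from the median r was -0.35. Within Ocn it was -0.81 (n = 6, exact permutation p = 0.0375, not adjusted), where Ocn 5 had both the most counts and the least miR-486a-5p, and within Prx1 it was -0.02 (n = 10, permutation p = 0.944). The part of depth in the lower miR-486 of Ocn was not tested apart from the fit with the covariate given above.

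Likeness was taken as Spearman's rho over the 16 libraries, after removing each group's mean from the log2 CPM (TMM-scaled). Among 229 other tested entries, miR-451a varied most like miR-142a-5p (0.82), miR-425-5p (0.79) and miR-15a-5p (0.77). miR-144-3p varied most like miR-18a-5p (0.81), miR-17-5p (0.80) and miR-140-5p (0.74). miR-144-5p varied most like miR-322-5p (0.87), miR-7a-5p (0.78) and miR-425-5p (0.76), and miR-486a-5p most like miR-130b-5p (0.71), miR-450b-5p (0.67) and miR-92a-3p (0.63). Of the last 3, miR-130b-5p and miR-450b-5p were low, with geometric means of about 37 and 22 CPM (TMM-scaled). The likeness values are descriptions, since all entries of a library share its depth and preparation. They are also the highest of 229 values for each member. The strands of the shared locus were not among each other's nearest entries. Among 233 entries, members included, miR-144-5p ranked 30 and miR-144-3p ranked 33 by likeness to miR-451a, and miR-144-5p ranked 162 by likeness to miR-144-3p.

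Of 12 other listed microRNAs abundant in red cells, 11 were tested and 0 passed in edgeR, against 13.7% of all tested entries. An unadjusted p under 0.05 (edgeR) was found for 2, against 62 of all 234 tested entries. With so few entries, these counts cannot be set apart from the shares over all entries. The median log2 fold change of the list was -0.05, against 0.01 over all tested entries. Values in the list ran from -0.38 for miR-15b-5p (adjusted p = 0.182) to 0.39 for miR-15a-5p (adjusted p = 0.0883), both from edgeR. miR-16-5p was at -0.01, miR-92a-3p at -0.14 and miR-363-3p at 0.36. The entries of this list made up 15.4% to 19.9% of the counts in Ocn and 13.1% to 18.1% in Prx1.

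Of 7 microRNAs reported to fall in or restrain erythroid maturation, 1 passed the test, a share near the 13.7% of all tested entries. miR-150-5p, which restrains Myb and is abundant in mature lymphocytes, fell in Ocn (log2 fold change -1.05, SE 0.20, edgeR adjusted p = 0.00125). miR-221-3p, which restrains the stem cell factor receptor Kit, was at -0.24, its neighbour miR-222-3p at 0.03, the myeloid miR-223-3p at -0.27 and miR-155-5p at -0.25. The median of the list was -0.25.

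miR-486 is also a striated muscle microRNA, so muscle entries are set beside it. Of 7 listed, 5 were tested, 0 passed higher and 2 passed lower in Ocn, against 5.98% higher and 7.69% lower among all tested entries, with a list median of -0.29. Counts from so few entries cannot be set apart from these shares. miR-133a-3p fell (log2 fold change -0.68, SE 0.16, edgeR adjusted p = 0.00819) and so did miR-133b-3p (-0.96, SE 0.24, edgeR adjusted p = 0.0101). miR-1a-3p, which shares a transcript with miR-133a, was at 0.34 (SE 0.17, edgeR adjusted p = 0.187), and miR-206-3p, of skeletal muscle, was at -0.29. miR-133a-5p, the other arm of the miR-133a hairpin, was at 0.77 (SE 0.30, edgeR adjusted p = 0.0883), and the 5p to 3p ratio of that hairpin was higher in Ocn (log2 difference 1.39, SE 0.35, limma adjusted p = 0.0107). The muscle entries summed to 4.68% to 7.75% of the counts in Ocn and 3.99% to 7.08% in Prx1, and none was at 0 in every library. The part of muscle vesicles in the miR-486 difference was not tested.

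Blood cell lists beside the erythroid one were also present in both groups. Of 4 myeloid and pan-leukocyte entries, 0 passed in edgeR, against 13.7% of all tested entries. An unadjusted p under 0.05 (edgeR) was found for 0 of them, against 62 of all 234 tested entries. With so few entries, these counts cannot be set apart from the shares over all entries. The list summed to 3.94% to 9.46% of the counts in Ocn and 4.24% to 6.93% in Prx1. Of 4 lymphoid entries, 2 passed, against 13.7% of all tested entries: miR-181a-5p rose (log2 fold change 0.61) and miR-150-5p fell. A count from so few entries cannot be set apart from that share. miR-150-5p and miR-155-5p are also in the maturation list above, so the miR-150-5p call is counted in both. The lymphoid list summed to 0.520% to 0.877% of the counts in Ocn and 0.519% to 0.831% in Prx1. Of the endothelial and platelet entries, both arms of miR-126a, 0 passed in edgeR and 0 had an unadjusted p under 0.05. These counts, too, cannot be set apart from the same shares over all tested entries. The sums were 1.67% to 2.08% in Ocn and 1.29% to 1.93% in Prx1. In the mesenchymal list 1 of 8 passed, a share near the 13.7% of all tested entries. An unadjusted p under 0.05 (edgeR) was found for 5 of the 8, against 62 of all 234 tested entries. The entry that passed was miR-199a-5p, which rose (log2 fold change 0.43, SE 0.13, edgeR adjusted p = 0.0290). The other entries with an unadjusted p under 0.05 went both ways. miR-140-5p was at 0.50 and miR-143-3p at 0.29, while miR-140-3p was at -0.51 and miR-10b-5p at -0.41. In this list 4 of 8 entries were above 0, and the median log2 fold change was -0.04. The part of other blood cells in the erythroid values was not tested.

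**Figure D5:**
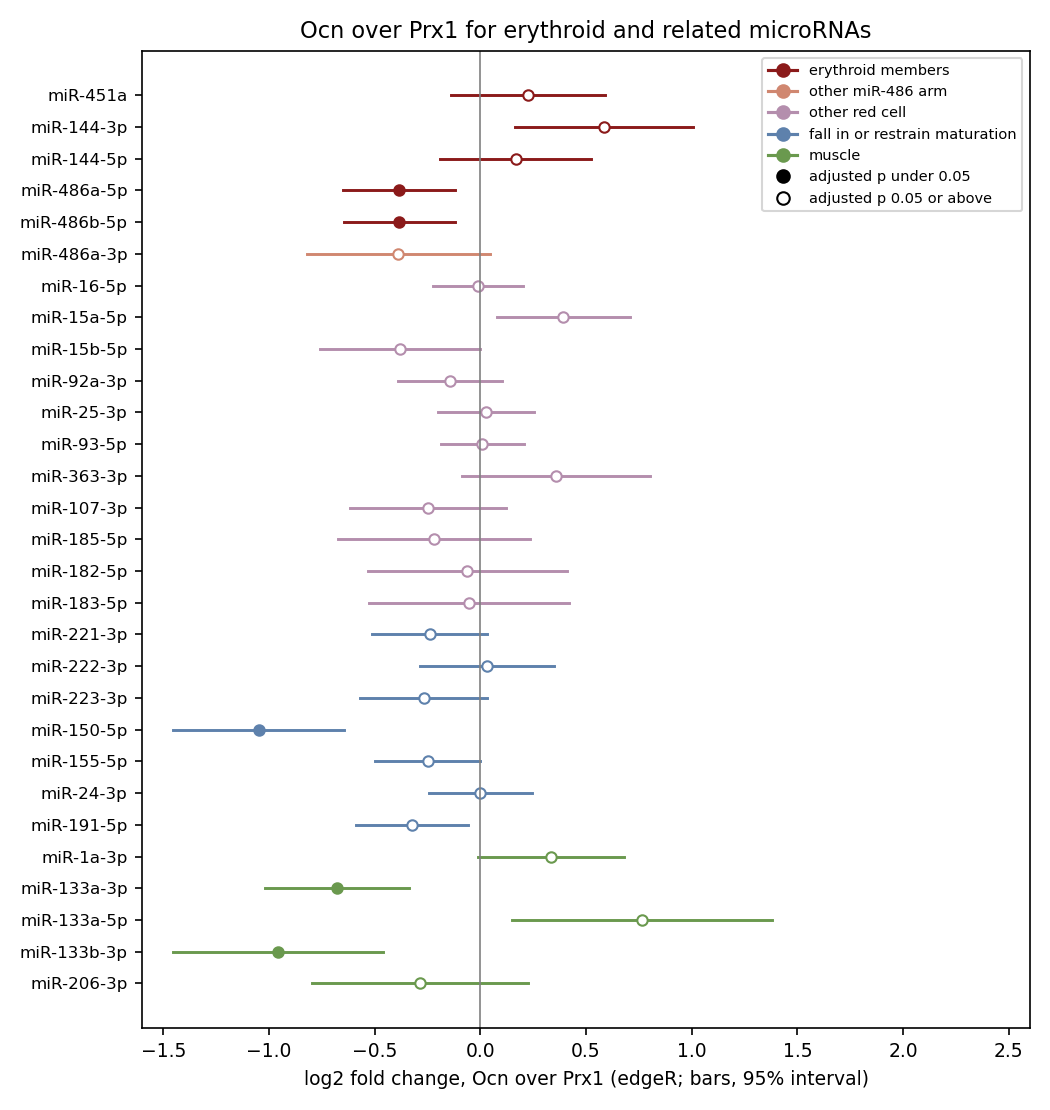
Log2 fold change, Ocn over Prx1, of the erythroid microRNAs, the other miR-486 arm, and the other red cell, maturation and muscle lists, from edgeR; the lymphoid and mesenchymal lists, each with an entry that rose, are not drawn as lists; bars are 95% intervals and filled points have an adjusted p under 0.05. The miR-486 5p entries (-0.38), miR-150-5p (-1.05), miR-133a-3p (-0.68) and miR-133b-3p (-0.96) are the filled points among those drawn.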

How the data were processed

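The deposited table holds raw counts per mature microRNA, 1 column per library, with no normalization by the authors, as its whole numbers and differing column totals show. Per the labels' protocols, libraries were made with the QIAseq miRNA kit from 1 ng of total RNA. Per the submitters' processing notes, cutadapt 1.18 and the mm10 build were used. The aligner is not given in the sources used here. Reads or molecular identifiers may have been counted. Intervals from counts cover counting error only and take each count as independent, so they may be too narrow if reads were counted.

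Entries passing filterByExpr (234, holding at least 99.7% of each library) were tested with edgeR 4.0.16 in R 4.3.3 (quasi-likelihood, TMM, robust, Benjamini-Hochberg over all tested). Arm ratios were tested with limma 3.58.1 on log2 of the 5p over the 3p count, each plus 0.5. The lysis ratio was tested by an exact permutation test over all 8008 arrangements of the group labels, and relations with 100000 permutations within groups. Per-library intervals are Clopper-Pearson. Hairpins were folded with RNAfold 2.7.2. The edgeR and limma steps were tested on simulated data. Alternatives were DESeq2 1.42.0, limma voom, other scalings and filters, thinning to 225273 counts, a depth covariate, a block on the replicate number, removed or summed entries, and each library left out. Each library was taken as 1 mouse, as the design text gives equal numbers. No pair of libraries of a group had counts equal within sampling noise (lowest chi-square per degree of freedom 5.04), and all were counted separately. Named entries are the members, those of 10 lists, and the 3 most like each member. Members and lists were chosen with earlier results of these data known. The relations to depth were added after seeing the data.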

Additional observations from a re-analysis of the deposited data

Results flagged for a closer look

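In 4 of 28 sets of values within a group, a single Ocn library stood apart from the others. The gap took more of the group's range than Dixon's 95% limit allows. Many of the sets share counts and are not independent, so the number flagged cannot be set against a rate by chance. For miR-144-5p, Ocn 3 had 7057 CPM while the other Ocn libraries had 3064 to 4468 CPM. For miR-451a over miR-23a-3p, Ocn 3 had a ratio of 2.56 and the others 0.865 to 1.46, and with miR-23b-3p as the denominator it had 5.08 and the others 1.78 to 2.72. For miR-144-5p over miR-144-3p, Ocn 6 had a ratio of 10.1 and the others 6.31 to 7.67.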

How the results depend on the processing

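miR-486 kept its direction in every alternative run, but the call on miR-486a-5p and miR-486b-5p was lost with library totals (log2 fold change -0.35 for both), RLE scaling (-0.38 for both), upper quartile scaling (-0.26 for both), no filter on low counts (-0.32 and -0.31), a minimum of 10 CPM in 6 libraries (-0.38 for both), thinned counts (-0.36 and -0.35), depth as a covariate (-0.18 and -0.17), and only Prx1 replicates 1 to 6 (-0.32 for both). Leaving out single libraries gave -0.42 to -0.24 for each, past the threshold in 9 of 16. For miR-144-3p the call was gained with DESeq2 (0.58), limma voom (0.55), upper quartile scaling (0.71) and no filter (0.67), and leaving out single libraries gave 0.50 to 0.75. Leaving out single libraries gave 0.14 to 0.36 for miR-451a, 0.09 to 0.29 for miR-144-5p and -0.56 to -0.31 for the miR-144 arm ratio, and none of these passed in any alternative. The number of entries called was 32, against 21 with thinned counts and 0 with the depth covariate (edgeR; 40 at an unadjusted p under 0.05), and 24 to 36 when single libraries were left out. The cause of these changes was not tested.

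The replicate numbers were not used to pair the libraries in the reported fit. Same-numbered libraries had correlations of deviations of 0.015 to 0.219, and 0 of 6 Ocn libraries correlated best with their own number. A best match with the own number would be rare without pairing too, so this check cannot exclude pairing. With the replicate block, 27 entries were called, miR-486a-5p and miR-486b-5p were at -0.39 (adjusted p = 0.0672 and 0.0684 in edgeR), and miR-144-3p was at 0.54 (edgeR adjusted p = 0.137).

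The ratio of miR-451a to miR-23a-3p turned from -0.07 to 0.0034 with miR-23b-3p as the denominator, and ran from -0.26 (without Ocn 3) to 0.048 when single libraries were left out. Of the relations, 1 passed with library totals and 1 with thinned counts, that of miR-451a and miR-144-5p in both. The relation of the miR-144 arms turned positive with library totals (0.13), thinned counts (0.17), no removal of the group mean (0.11) and within Ocn (0.81). That of miR-486a-5p and miR-144-3p did so with library totals (0.063), thinned counts (0.023) and within Ocn (0.12). That of miR-486a-5p and miR-133a-3p was -0.42 within Ocn, and that of miR-451a and depth was -0.038 without the 2 farthest libraries. miR-144-3p had the fewest counts of the members, 74 to 1088 in a library.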
